A study of Homo sapiens with 18 samples.

Results

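The nuclear-encoded subunits of the respiratory chain and of the ATP synthase were examined in spheroids grown from MDA-MB-231 cells, a widely used line of triple-negative breast cancer. The 76 genes were taken by symbol from the 62710 genes of the count table. They comprised 36 subunits of complex I, 4 of complex II, 8 of complex III, 11 of complex IV (NDUFA4 among them, despite its name) and 17 of complex V. All 76 passed the filter on low counts. The 18 libraries formed 6 groups of 3. Spheroids labelled MMP14-KO (KO), which carry a targeted MMP14 gene, and spheroids labelled Wildtype (control) were harvested straight from the droplets in which they had formed for 5 days, or 24 h or 48 h after being embedded in collagen gel. The product of MMP14 is a collagen-cleaving protease tethered to the cell surface, and the labels do not say whether the KO cells are a single clone. A sample comprised 100000 cells, with 2000 cells per spheroid. The embedded spheroids were freed with collagenase at 2 mg/ml and those from droplets were not. They also had the additional 24 h or 48 h in culture. The effects of collagen, of digestion and of time in culture therefore cannot be told apart.

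The respiratory chain lies in the inner mitochondrial membrane. Complex I takes electrons from NADH and complex II takes them from succinate, complexes III and IV pass them to oxygen, and complex V, the ATP synthase, uses the proton gradient built by complexes I, III and IV. Most subunits are encoded in the nucleus and imported, while a small set of core subunits is encoded by the mitochondrial genome, and tumour cells run this pathway beside a high rate of glycolysis.

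Total counts per library ranged from 19819401 to 33352163, and the 76 genes held between 0.556% and 0.665% of them. MMP14 itself had a level of 154 ± 5.20, 153 ± 11.6 and 148 ± 13.4 CPM (counts scaled to library size; SD, n = 3 each) in KO spheroids in droplets, at 24 h and at 48 h, against 2045 ± 178, 1819 ± 139 and 1447 ± 143 CPM in control spheroids. VIM lay between 1930 and 3834 CPM, while ESR1 did not exceed 0.308 CPM and PGR did not exceed 0.209 CPM, although KRT19 lay between 262 and 496 CPM. Among markers of other cell types, the 7 fibroblast markers summed to 33.8 to 40.2 CPM in KO and 47.2 to 59.4 CPM in control droplets, to 56.3 to 59.6 CPM in KO and 43.6 to 52.5 CPM in control spheroids at 24 h, and to 44.4 to 54.1 CPM in KO and 37.4 to 38.6 CPM in control spheroids at 48 h. The fibroblast sum was therefore lower in KO in droplets and higher in KO in collagen, while COL1A2 was lower in KO in all 3 conditions (log2 fold changes −2.89, −4.01 and −3.21). The 6 endothelial markers summed to 51.0 to 52.1 CPM in KO and 34.3 to 37.7 CPM in control droplets, to 37.8 to 44.0 CPM in KO and 18.3 to 28.6 CPM in control spheroids at 24 h, and to 38.4 to 48.2 CPM in KO and 17.9 to 21.8 CPM in control spheroids at 48 h. TIE1 was higher in KO in all 3 conditions (3.29, 3.39 and 3.33), while KDR was higher in KO in droplets (0.77) and lower at 24 h (−0.36, adjusted p = 0.0426). The sums of the 6 leukocyte markers overlapped between the genotypes in every condition. At 24 h they were 113 to 150 CPM in KO and 119 to 136 CPM in control spheroids. LYZ was higher in KO in droplets (0.45, edgeR, adjusted p = 0.0103) and at 24 h (0.54, adjusted p = 0.00845). At 48 h 2 of the 6 were higher in KO, with CD14 at 0.54 (adjusted p = 0.0312). Against droplets LYZ fell at 24 h by 1.78 in KO and by 1.87 in control. CD3E was at 0 in every library. The part of these genes in the results was not tested. KO replicate 1 at 48 h stood apart from its group, with a summed level of the 76 subunits of 6608 CPM against 5506 and 5872 CPM in the other replicates, and counts of members called at 48 h are given with and without it. This library was set apart by the values of the members themselves, so leaving it out lowers their summed KO level by construction. The levels, means and fold changes of single members at 48 h include this library unless stated otherwise.

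**Figure D1:**
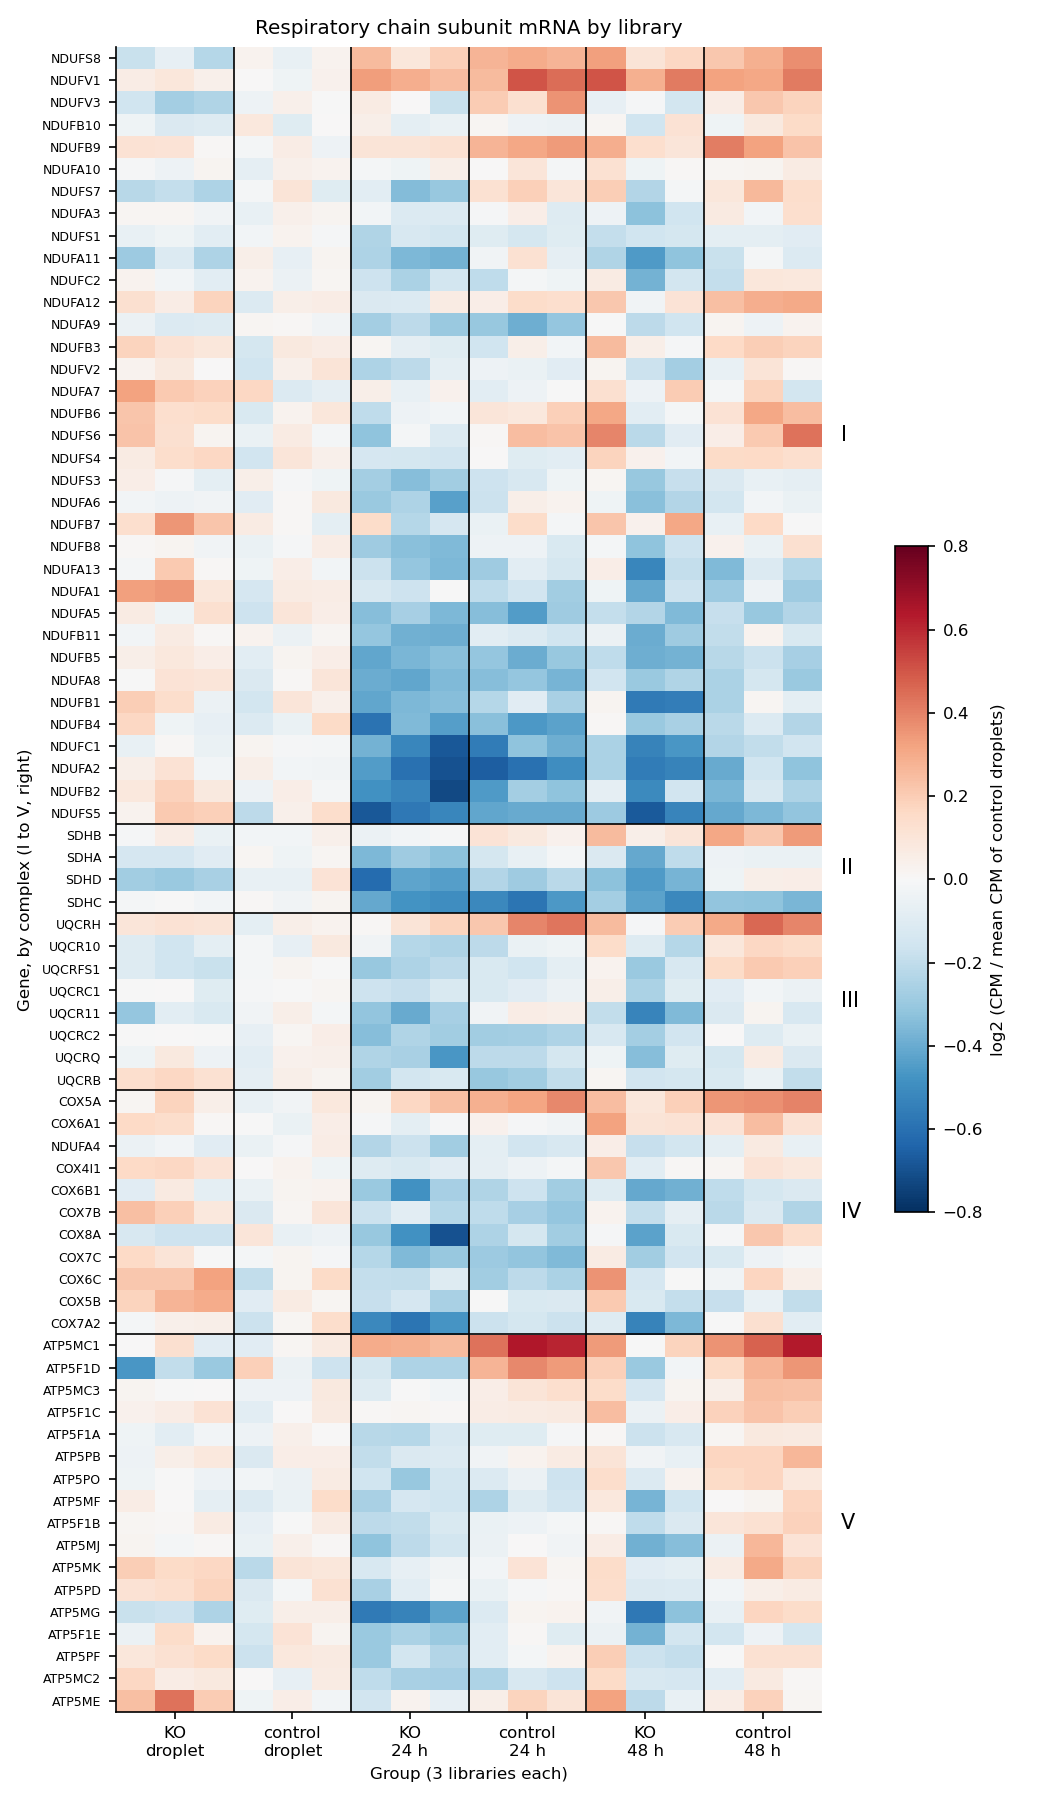
Level of 75 of the 76 subunit mRNAs in each of the 18 libraries, as log2 of CPM over the mean CPM of control droplets, with genes ordered by complex (I to V) on the vertical axis and libraries by group on the horizontal axis. The KO libraries at 24 h are mostly below the control droplets and KO replicate 1 at 48 h differs from the other replicates of its group.

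Each level is a share of the RNA of a whole spheroid sample, so fewer cells expressing a gene and less of its RNA per cell cannot be told apart. Levels are given per gene as CPM with TMM factors, and differences were tested gene by gene with edgeR's quasi-likelihood test, adjusted by the Benjamini-Hochberg method over all 17030 genes tested, with a threshold of 0.05. No member reached an absolute log2 fold change of 1 in any comparison. The labels do not say whether the replicates came from separate cultures, so the p-values measure only the spread between these samples, which may be technical.

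Per kilobase of annotated transcript, the level was highest for ATP5F1B, the catalytic beta subunit of the ATP synthase, with 289 CPM per kb as the mean of the 6 groups. It was followed by the complex IV subunits COX6A1 with 241 and COX4I1 with 187 CPM per kb, and between them by NDUFS5, an accessory subunit of complex I, with 190 CPM per kb. The median per-kilobase level was 39.9 CPM per kb for the subunits of complex I, 54.6 for complex II, 48.9 for complex III, 128 for complex IV and 98.3 for complex V. By these medians complex IV and complex V subunits had more mRNA per length than those of complexes I, II and III. The values of NDUFA9 (4.72 CPM per kb) and SDHC (6.91 CPM per kb) rest on annotated transcripts of 8363 and 13566 nt and are uncertain. Other members also had long annotated transcripts, among them NDUFS1 with 7095 nt and UQCRB with 5575 nt. Every level per kb depends on the annotated length used, so the order of the genes and of the complex medians is uncertain too.

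In KO spheroids, 24 h in collagen came with lower mRNA levels across most of the chain, while in control spheroids subunits moved in both directions. The 76 subunits summed to 5556 ± 60.9 CPM (SD, n = 3) in KO spheroids at 24 h, against 6490 ± 49.6 CPM in KO droplets. In control spheroids the sum was 6055 ± 96.3 CPM at 24 h, against 6400 ± 211 CPM in control droplets. The sum at 48 h was 5995 ± 561 CPM in KO and 6561 ± 201 CPM in control spheroids, and the KO mean was 5689 CPM without replicate 1.

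In KO spheroids at 24 h against KO droplets, 50 of the 76 members fell and 4 rose. Over all genes tested in this comparison, 25.7% were lower and 25.5% were higher. The members that fell comprised 23 of 36 in complex I, 3 of 4 in complex II, 3 of 8 in complex III, 9 of 11 in complex IV and 12 of 17 in complex V. The median log2 fold change of the members was −0.25, beside 0.00 for all genes. In control spheroids at 24 h against control droplets, 20 members fell and 8 rose, and 28.7% of all genes were lower and 27.8% were higher. The control falls comprised 11 subunits of complex I, 2 of complex II, 3 of complex III, 3 of complex IV and 1 of complex V, and the median was −0.07. Every one of the 20 that fell in control spheroids also fell in KO spheroids, where they made up 40.0% of the falls. The 4 that rose in KO (NDUFS8, ATP5MC1, NDUFV1 and NDUFV3) also rose in control. The matching overlap over all genes is not given here.

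NDUFS5, an accessory subunit of complex I (chr1:39026318-39034636, plus strand, GRCh38, GENCODE 29), had the largest fall in KO spheroids. Its levels were 77.7, 83.6 and 86.5 CPM in KO spheroids at 24 h, against 127, 143 and 142 CPM in KO droplets. In control spheroids they were 92.9, 93.8 and 93.9 CPM at 24 h, against 107, 128 and 137 CPM in control droplets. The groups did not overlap in either genotype, and every library in collagen lay below every library in droplets. The log2 fold change of NDUFS5 was −0.73 (SE 0.0861, adjusted p = 9.31e-07) in KO and −0.41 (SE 0.0855, adjusted p = 0.000422) in control. NDUFA2, another accessory subunit of complex I, fell by nearly the same amount in both genotypes. It had 27.1, 24.4 and 22.8 CPM in KO spheroids at 24 h, against 38.1, 40.0 and 36.3 CPM in KO droplets, and 23.3, 24.4 and 26.2 CPM in control spheroids at 24 h, against 38.0, 36.4 and 36.2 CPM in control droplets. Its log2 fold changes were −0.62 (SE 0.083) in KO and −0.58 (SE 0.0828) in control. Exons of NDUFA2 overlap those of IK and TMCO6 on the opposite strand, and whether counting used strand is not given in the sources used here, so reads of NDUFA2 and of these neighbours cannot be told apart. SDHC, a membrane anchor of complex II, had 85.3, 81.3 and 80.1 CPM in KO at 24 h, against 112, 113 and 112 CPM in KO droplets. In control it had 79.2, 75.4 and 82.3 CPM at 24 h, against 114, 111 and 115 CPM in droplets (log2 fold change −0.52, adjusted p = 3.28e-08). The ranges in collagen and in droplets were far apart for SDHC in both genotypes.

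COX7A2, a small structural subunit of complex IV, is one of the members that fell in KO spheroids without passing the test in control. Its levels were 69.1, 65.7 and 71.1 CPM in KO at 24 h, against 97.4, 101 and 102 CPM in KO droplets, with a log2 fold change of −0.55 (SE 0.0856, adjusted p = 2.63e-05). In control it had 87.5, 89.2 and 87.5 CPM at 24 h, against 87.4, 99.8 and 108 CPM in droplets. The control groups overlapped, and the difference between the genotypes in this response was −0.38 on the log2 scale with an adjusted p of 0.057, which missed the threshold.

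A small group of members rose in collagen. ATP5MC1 encodes a c-ring subunit of the ATP synthase (chr17:48892765-48895871, plus strand), the rotating ring through which protons pass. It had 33.1, 32.7 and 32.1 CPM in KO spheroids at 24 h, against 27.0, 29.4 and 25.2 CPM in KO droplets, and 36.3, 42.0 and 41.0 CPM in control spheroids at 24 h, against 25.2, 27.2 and 28.2 CPM in control droplets. The groups did not overlap in either genotype, and the log2 fold change was 0.26 (SE 0.0857, adjusted p = 0.0138) in KO and 0.56 (SE 0.0849, adjusted p = 6.24e-06) in control. NDUFV1, the subunit of complex I that binds NADH, had 84.3, 82.1 and 79.3 CPM in KO at 24 h, against 69.9, 71.3 and 68.8 CPM in KO droplets. In control it had 79.7, 95.0 and 91.3 CPM at 24 h, against 67.0, 65.4 and 68.4 CPM in droplets. NDUFV1 lay higher in every library in collagen than in any in droplets, with log2 fold changes of 0.23 (adjusted p = 0.00427) in KO and 0.41 (adjusted p = 7.65e-06) in control. NDUFS8, an iron-sulfur subunit of complex I, rose by 0.33 in KO (adjusted p = 0.000147) and by 0.28 in control (adjusted p = 0.000598). COX5A, a subunit on the matrix side of complex IV, did not pass in KO and passed in control. In KO it had 52.9, 58.6 and 61.7 CPM at 24 h, against 52.7, 58.9 and 53.8 CPM in droplets, and these groups overlapped. In control it had 63.4, 65.1 and 68.2 CPM at 24 h, against 50.1, 51.1 and 55.3 CPM in droplets (log2 fold change 0.33, adjusted p = 0.000109). The difference between the genotypes for COX5A was −0.26 with an adjusted p of 0.0715.

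**Figure D2:**
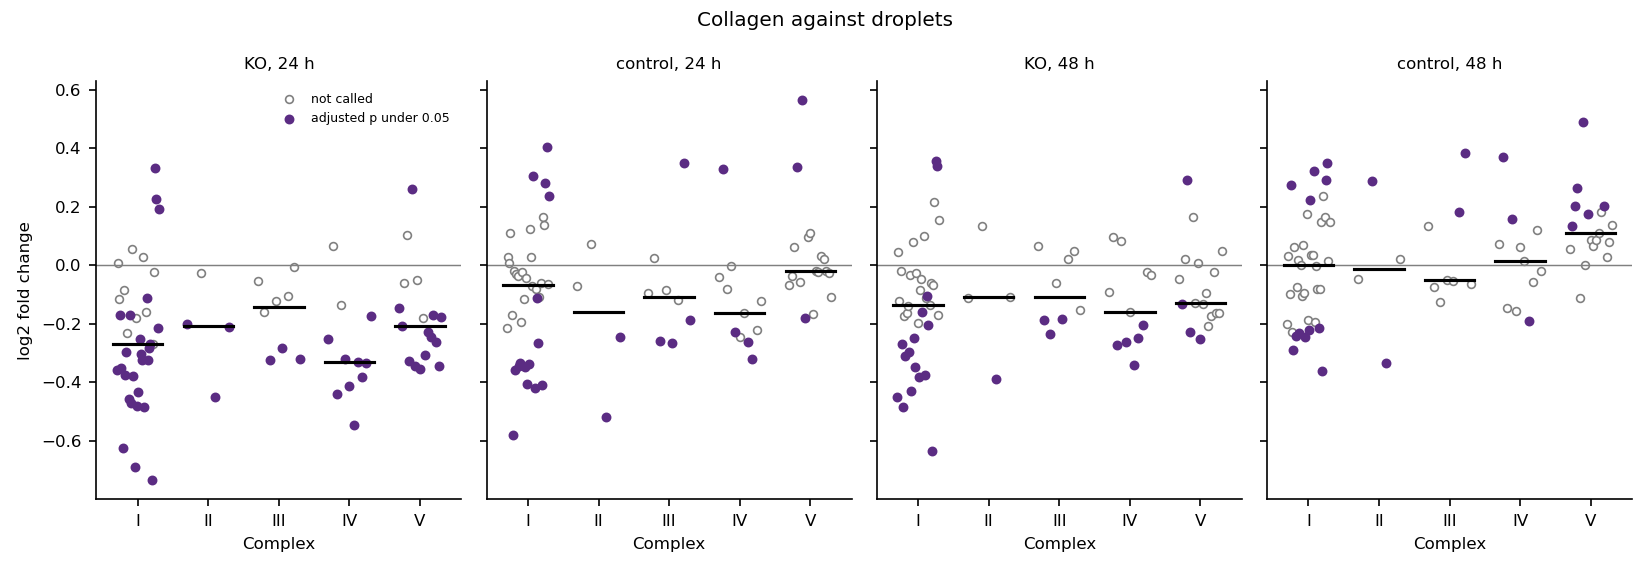
Log2 fold change of each member in collagen against droplets, by complex on the horizontal axis, in panels for KO and control spheroids at 24 h and at 48 h. Horizontal bars are the median of a complex, and filled points passed the adjusted p threshold of 0.05. In KO at 24 h 50 points passed below 0 and 4 above, while in control at 24 h 20 passed below and 8 above.

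Promoter stretches are shown for members with large collagen responses in control spheroids, so that members that moved in opposite directions can be compared letter by letter. Taken were the 3 largest rises and the 3 largest falls at 24 h among members with a single promoter window in the table. At least 80 bases of the window had to lie outside exons of annotated coding transcripts. Each stretch is at most 200 bases, printed 5′ to 3′ on the gene's strand, from RefSeq on GRCh38.p14. Capitals mark a CCAAT box (CCAAT, or ATTGG on the other strand) or the core of the binding motif of NRF1 (nuclear respiratory factor 1, a regulator of respiratory genes, spelled GCATGCGC or, on the other strand, GCGCATGC). The stretches of the members that rose lie at chr17:48892565-48892764 (plus strand), chr15:74938169-74938323 (minus strand) and chr11:68030431-68030626 (plus strand).
ATP5MC1: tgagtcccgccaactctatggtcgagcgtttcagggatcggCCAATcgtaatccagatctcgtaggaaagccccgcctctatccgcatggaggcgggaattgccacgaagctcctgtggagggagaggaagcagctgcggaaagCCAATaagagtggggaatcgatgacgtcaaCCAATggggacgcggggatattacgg
COX5A: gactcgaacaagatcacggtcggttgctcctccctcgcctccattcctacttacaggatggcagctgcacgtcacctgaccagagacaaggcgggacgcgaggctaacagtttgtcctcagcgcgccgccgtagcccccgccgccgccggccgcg
NDUFS8: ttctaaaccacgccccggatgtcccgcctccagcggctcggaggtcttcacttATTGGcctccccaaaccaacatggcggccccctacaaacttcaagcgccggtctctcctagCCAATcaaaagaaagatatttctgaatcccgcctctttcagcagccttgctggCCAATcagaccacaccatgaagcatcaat
Those of the members that fell lie at chr3:120596109-120596308 (plus strand), chr7:140696471-140696670 (plus strand) and chr9:122159820-122159907 (minus strand). That of NDUFB2 lies within the gene as annotated in GENCODE 29 (chr7:140690777-140722790).
NDUFB4: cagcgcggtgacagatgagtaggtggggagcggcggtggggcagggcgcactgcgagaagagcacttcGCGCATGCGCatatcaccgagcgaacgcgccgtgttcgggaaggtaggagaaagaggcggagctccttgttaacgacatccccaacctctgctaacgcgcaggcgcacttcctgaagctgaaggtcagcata
NDUFB2: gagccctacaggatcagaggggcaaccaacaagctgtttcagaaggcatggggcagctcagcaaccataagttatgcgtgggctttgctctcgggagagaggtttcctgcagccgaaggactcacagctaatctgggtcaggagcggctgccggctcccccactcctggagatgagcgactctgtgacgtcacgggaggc
NDUFA8: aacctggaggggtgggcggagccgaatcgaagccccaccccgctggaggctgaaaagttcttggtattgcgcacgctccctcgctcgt
The stretch of ATP5MC1 held CCAAT boxes at positions −181, −78 and −48 from the start, and that of NDUFS8 held them at −197, −136 and −83. That of NDUFB4, an accessory subunit of complex I that fell by 0.41 on the log2 scale in control at 24 h, held the NRF1 core on both strands, overlapping, at −159 and −157. No searched motif lay in the printed stretches of COX5A, NDUFB2 or NDUFA8, although the whole window of NDUFA8 held the NRF1 core outside the printed stretch.

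The RefSeq table held 75 promoter windows for 63 of the 76 members, each from 250 bases before to 50 bases after a start. Those without an entry included ATP5F1B, ATP5F1D, ATP5MC3, ATP5MF, COX6C, NDUFA4, NDUFB5, NDUFB9, NDUFC2, NDUFS5, SDHC and UQCRB. The NRF1 core lay in 15 of the 75 windows (20.0%), beside 3.74% of 22199 windows of coding genes. The YY1 motif AAGATGGC lay in 17.3% of the windows of members and 3.53% of those of coding genes. The ETS motif CCGGAAG, bound by GABPA among others, lay in 29.3% and 12.8%. The motif of the estrogen-related receptors, TCAAGGTCA, lay in 1.33% and 0.243%, and the CCAAT box in 32.0% and 34.7%. All motifs were searched on both strands, and windows of a gene with several starts overlap. A match describes the letters of a window and nothing about binding.

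At 48 h fewer members were lower than in droplets in both genotypes, but the KO count depended on a single library. In KO at 48 h against KO droplets, 26 members fell and 3 rose (23.6% and 25.8% of all genes), with a median of −0.13. Without KO replicate 1 at 48 h, 45 fell and 2 rose, with a median of −0.22. In control at 48 h against control droplets, 9 members fell and 16 rose (27.5% and 27.7% of all genes), with a median of 0.03, but with library size as the only scaling 17 fell and 11 rose, and without control replicate 2 at 48 h 12 fell and 11 rose. The control rises included 6 of the 17 subunits of complex V, 5 of complex I, 1 of complex II, 2 of complex III and 2 of complex IV. All 9 falls in control were also falls in KO, and the matching overlap over all genes is not given here. NDUFS5 was again lower, with 101, 78.0 and 85.9 CPM in KO at 48 h and 93.6, 96.6 and 99.9 CPM in control at 48 h (log2 fold changes against droplets −0.63 and −0.36). ATP5MC1 had 34.1, 26.9 and 30.4 CPM in KO at 48 h, where it did not pass the test, and 34.4, 37.3 and 41.7 CPM in control at 48 h (log2 fold change 0.49, adjusted p = 4.33e-05). Control libraries all lay above the control droplets, whereas KO libraries overlapped the KO droplets. NDUFV1 and NDUFS8 rose in both genotypes at 48 h, by 0.34 and 0.36 in KO and by 0.35 and 0.29 in control.

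Between 24 h and 48 h in collagen the changes were upward. In KO spheroids 3 members rose and 0 fell, beside 2.07% higher and 1.73% lower over all genes, and in control spheroids 13 rose and 0 fell, beside 6.32% and 6.88%. The median was 0.10 in both genotypes, and 0.03 in KO without KO replicate 1 at 48 h. At an unadjusted p under 0.05 edgeR had 26 members higher and 0 lower in each genotype. DESeq2 called 5 higher in KO and 14 higher in control, with 0 lower in either. The shares of all genes at these settings are not given here, so these counts cannot be set against the other genes. NDUFA9, an accessory subunit of complex I, rose by 0.33 in control (SE 0.0575, adjusted p = 0.000444), and UQCRFS1, the Rieske iron-sulfur protein of complex III, rose by 0.30 (SE 0.0586, adjusted p = 0.00136). In KO the 3 were NDUFB2 (0.34, adjusted p = 0.0451), ATP5PO, a stalk subunit of the ATP synthase (0.23, adjusted p = 0.0343), and COX6A1 (0.22, adjusted p = 0.0417). ATP5PO also rose in control, by 0.25. The KO count rests on single libraries, since it was 0 without KO replicate 2 or 3 at 24 h or without KO replicate 1 or 3 at 48 h, and 12 without KO replicate 2 at 48 h. The control count was 8 without replicate 2 or 3 at 24 h, and 7 and 8 without replicates 2 and 3 at 48 h. The change from 24 h to 48 h was not shown to differ between the genotypes. No member passed that test with edgeR or with DESeq2, 3 members had an unadjusted p under 0.05 with either tool, and 0% of all genes passed with edgeR.

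The comparison of KO with control spheroids asks how the genotypes differ in each condition. In droplets few members differed, and they had no common direction. In collagen the members that differed were all lower in KO, at 24 h and at 48 h.

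In droplets 4 members were lower in KO and 1 was higher, beside 9.7% lower and 7.7% higher over all genes, and the median was 0.03. With library size as the only scaling 2 were lower and 6 higher, and with the filter of 1 CPM in 3 libraries 4 were lower and 5 higher. Counts also moved when a library was left out, between 2 and 6. Without control replicate 1 the count was 2, without control replicate 2 or KO replicate 1 or 2 it was 3, and without control replicate 3 or KO replicate 3 most calls were higher in KO (4 of 6 and 3 of 4). SDHD, a membrane anchor of complex II (chr11:112086773-112120013, plus strand), passed in droplets under each of the 14 alternatives run for this comparison. It had 106, 105 and 108 CPM in KO droplets, against 124, 124 and 139 CPM in control droplets, with no overlap (log2 fold change −0.28, SE 0.0566, adjusted p = 0.00122). Exons of SDHD overlap those of TIMM8B on the opposite strand. The other calls in droplets were ATP5F1D (−0.31, adjusted p = 0.0427), NDUFV3 (−0.23, adjusted p = 0.032), NDUFA11 (−0.21, adjusted p = 0.0341) and COX5B (0.25, adjusted p = 0.0301).

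At 24 h in collagen 20 members were lower in KO and 0 were higher. Over all genes 15.7% were lower and 13.7% were higher, and the median was −0.11 for the members, beside 0.00 for all genes. With library size as the only scaling 14 were lower and 0 higher, and the median was −0.06, beside 0.06 for all genes. The members that fell were 8 of complex I, 2 of complex II, 2 of complex III, 3 of complex IV and 5 of complex V. KO and control libraries did not overlap for any of the 20, which the test on these same libraries had picked. This lack of overlap therefore adds no support, and the matching share over all genes is not given here. The count was 13 without control replicate 2 at 24 h and 12 without control replicate 3. At 48 h 21 members were lower in KO and 0 higher, beside 15.1% and 14.4% over all genes. These were 5 of complex I, 3 of complex II, 3 of complex III, 3 of complex IV and 7 of complex V, with a median of −0.12. The 48 h count depended on the libraries, with 42 lower and a median of −0.20 without KO replicate 1, 8 without KO replicate 2, 13 without KO replicate 3 or control replicate 2 and 10 without control replicate 3. Of the 21, 20 were also lower without KO replicate 1, and NDUFV3 was not (adjusted p = 0.0517). With library size as the only scaling 9 were lower, and the median was −0.07, beside 0.05 for all genes. At an unadjusted p under 0.05, edgeR had 30 members lower and 0 higher in KO at each time, and DESeq2 called 22 lower and 0 higher at each. The shares of all genes at these settings are not given here, so these counts cannot be set against the other genes. All 17 subunits of complex V had a fitted log2 fold change below 0 at both times. The times share no library but compare the same genotypes. At both times 14 members were lower, which is 70.0% of the 24 h set and 66.7% of the 48 h set. Without KO replicate 1 at 48 h, 16 were lower at both. The 4 members lower in droplets were lower at both times as well. The matching overlaps over all genes are not given here, so these overlaps only describe the members.

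**Figure D3:**
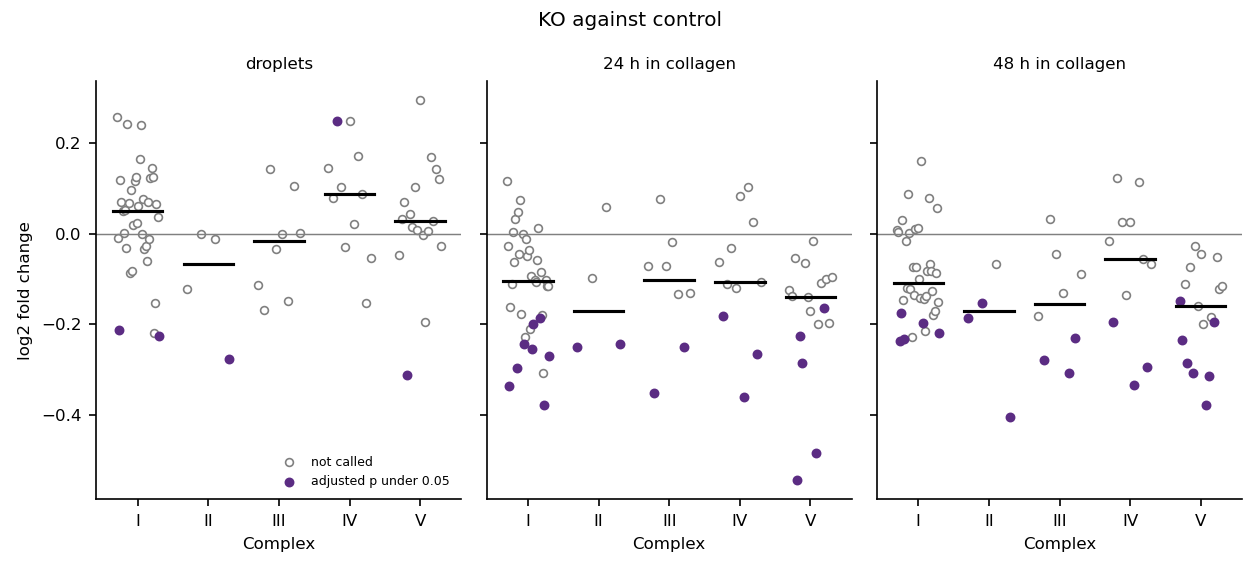
Log2 fold change of KO against control spheroids for each member, by complex on the horizontal axis, in panels for droplets, 24 h and 48 h in collagen. Horizontal bars are the median of a complex, and filled points passed the adjusted p threshold of 0.05: 4 below and 1 above 0 in droplets (2 and 6 with library size as the only scaling), 20 below at 24 h and 21 below at 48 h.

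In complex V, ATP5F1D, the delta subunit of the central stalk (chr19:1241746-1244826, plus strand), had the largest difference at 24 h. It had 31.5, 29.3 and 29.3 CPM in KO, against 42.0, 45.4 and 43.9 CPM in control spheroids (log2 fold change −0.54, SE 0.102, adjusted p = 0.000546). At 48 h it had 39.6, 28.3 and 34.2 CPM in KO, against 38.6, 42.0 and 44.4 CPM in control (−0.29, adjusted p = 0.0417). The groups were apart at 24 h, and at 48 h KO replicate 1 lay within the control range. ATP5MG, the g subunit of the membrane part, had 93.2, 95.2 and 103 CPM in KO at 24 h, against 128, 140 and 140 CPM in control (−0.49, SE 0.0993, adjusted p = 0.00157). At 48 h it had 135, 92.6 and 110 CPM in KO, against 132, 155 and 153 CPM in control, and the groups overlapped through KO replicate 1. ATP5MC1 was lower in KO at 24 h (−0.29, adjusted p = 0.0129) and at 48 h (−0.31, adjusted p = 0.00926). The summed level of complex V was 2031 ± 52.0 CPM in KO and 2264 ± 48.5 CPM in control at 24 h, and 2184 ± 204 CPM in KO and 2473 ± 82.6 CPM in control at 48 h, where the KO mean was 2071 CPM without replicate 1. Without that library the 48 h differences were −0.41 for ATP5F1D (adjusted p = 0.00575) and −0.53 for ATP5MG (adjusted p = 7.39e-05). Because that library was set apart by its high sum of the members, these values add no support.

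In complex II, SDHA, the flavoprotein that oxidises succinate, had 118, 124 and 121 CPM in KO at 24 h, against 137, 145 and 149 CPM in control (log2 fold change −0.25, SE 0.0566, adjusted p = 0.00195). At 48 h it had 140, 114 and 131 CPM in KO, against 147, 146 and 146 CPM in control (−0.19, adjusted p = 0.016). All KO libraries of SDHA lay below all control libraries at both times. Pseudogene rows of SDHA held 18.2% as many reads as SDHA itself, so its counts are uncertain. SDHD had 84.2, 96.4 and 94.9 CPM in KO at 24 h, against 109, 106 and 111 CPM in control. At 48 h SDHD had 103, 94.1 and 99.6 CPM in KO, against 126, 133 and 134 CPM in control (−0.41, SE 0.0571, adjusted p = 2.01e-05). It was lower in KO in every condition without overlap, while SDHC was not called in any of them. SDHB, the iron-sulfur subunit, was called at 48 h (−0.15, adjusted p = 0.0431), where its groups overlapped.

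In complex III, UQCRFS1 had 82.1, 85.1 and 87.4 CPM in KO at 24 h, against 93.0, 90.5 and 95.7 CPM in control, and was not called there. At 48 h it had 103, 82.5 and 92.4 CPM in KO, against 112, 117 and 115 CPM in control (−0.31, SE 0.0589, adjusted p = 0.000491), with no overlap. UQCR11, a small accessory subunit, was lower at 24 h (−0.35, SE 0.0732, adjusted p = 0.00103) and at 48 h (−0.28, adjusted p = 0.00672). In complex IV, COX7A2 was lower at 24 h (−0.36, SE 0.0859, adjusted p = 0.00369) and at 48 h (−0.33, adjusted p = 0.00634). COX8A was lower at the same times (−0.27, adjusted p = 0.047, and −0.29, adjusted p = 0.0284), as was COX5A (−0.18, adjusted p = 0.0307, and −0.19, adjusted p = 0.0229). In complex I the largest difference at 24 h was that of NDUFS7, an iron-sulfur subunit of the arm that reduces ubiquinone (−0.38, SE 0.0899, adjusted p = 0.00301). The accessory subunits NDUFA11 (−0.34 and −0.24) and NDUFV3 (−0.27 and −0.22) were lower at 24 h and at 48 h. 

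Other subunits of defined function had the following levels. NDUFS1, which carries iron-sulfur clusters of complex I, had 125, 135 and 133 CPM in KO at 24 h, against 138, 133 and 138 CPM in control, and these groups overlapped. It fell slightly at 24 h against droplets in both genotypes (−0.11 in each), where KO droplets had 141, 144 and 139 CPM and control droplets 145, 150 and 146 CPM, and at 48 h it had 129, 132 and 134 CPM in KO and 140, 140 and 138 CPM in control. The range of NDUFS1 over all groups was narrow. COX4I1, the first nuclear subunit built into complex IV, had 123 ± 1.41 CPM in KO at 24 h, against 146 ± 2.91 CPM in KO droplets (−0.25, adjusted p = 0.000818). In control it had 128 ± 2.48 CPM at 24 h and 132 ± 2.66 CPM in droplets, and at 48 h it had 137 ± 14.8 CPM in KO and 138 ± 4.84 CPM in control. The KO droplets were the highest group for COX4I1. ATP5F1A, the alpha subunit of the catalytic head, had 442 ± 17.1 CPM in KO at 24 h and 490 ± 10.4 CPM in KO droplets (−0.15, adjusted p = 0.0206), and 483 ± 16.4 CPM in control at 24 h and 506 ± 13.6 CPM in control droplets. At 48 h ATP5F1A was lower in KO, with 474 ± 31.7 CPM, than in control, with 526 ± 12.8 CPM (−0.15, adjusted p = 0.0306). UQCRC1, a core protein of complex III, passed no test in any comparison. It had 151 ± 5.73 CPM in KO and 155 ± 1.25 CPM in control droplets, 139 ± 2.97 CPM in KO and 146 ± 3.96 CPM in control at 24 h, and 145 ± 15.2 CPM in KO and 150 ± 3.57 CPM in control at 48 h. NDUFA4 fell in KO at 24 h, with 83.5 ± 3.18 CPM against 94.2 ± 2.12 CPM in KO droplets (−0.17, adjusted p = 0.0177), and in control it had 89.9 ± 2.33 CPM at 24 h and 97.8 ± 3.89 CPM in droplets. At 48 h NDUFA4 had 92.0 ± 8.37 CPM in KO and 96.4 ± 5.60 CPM in control. SDHB rose in control at 48 h, with 68.3 ± 3.12 CPM against 55.9 ± 1.45 CPM in control droplets (0.29, adjusted p = 0.000144), while in KO it had 61.3 ± 4.65 CPM at 48 h and 55.9 ± 2.16 CPM in droplets.

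**Figure D4:**
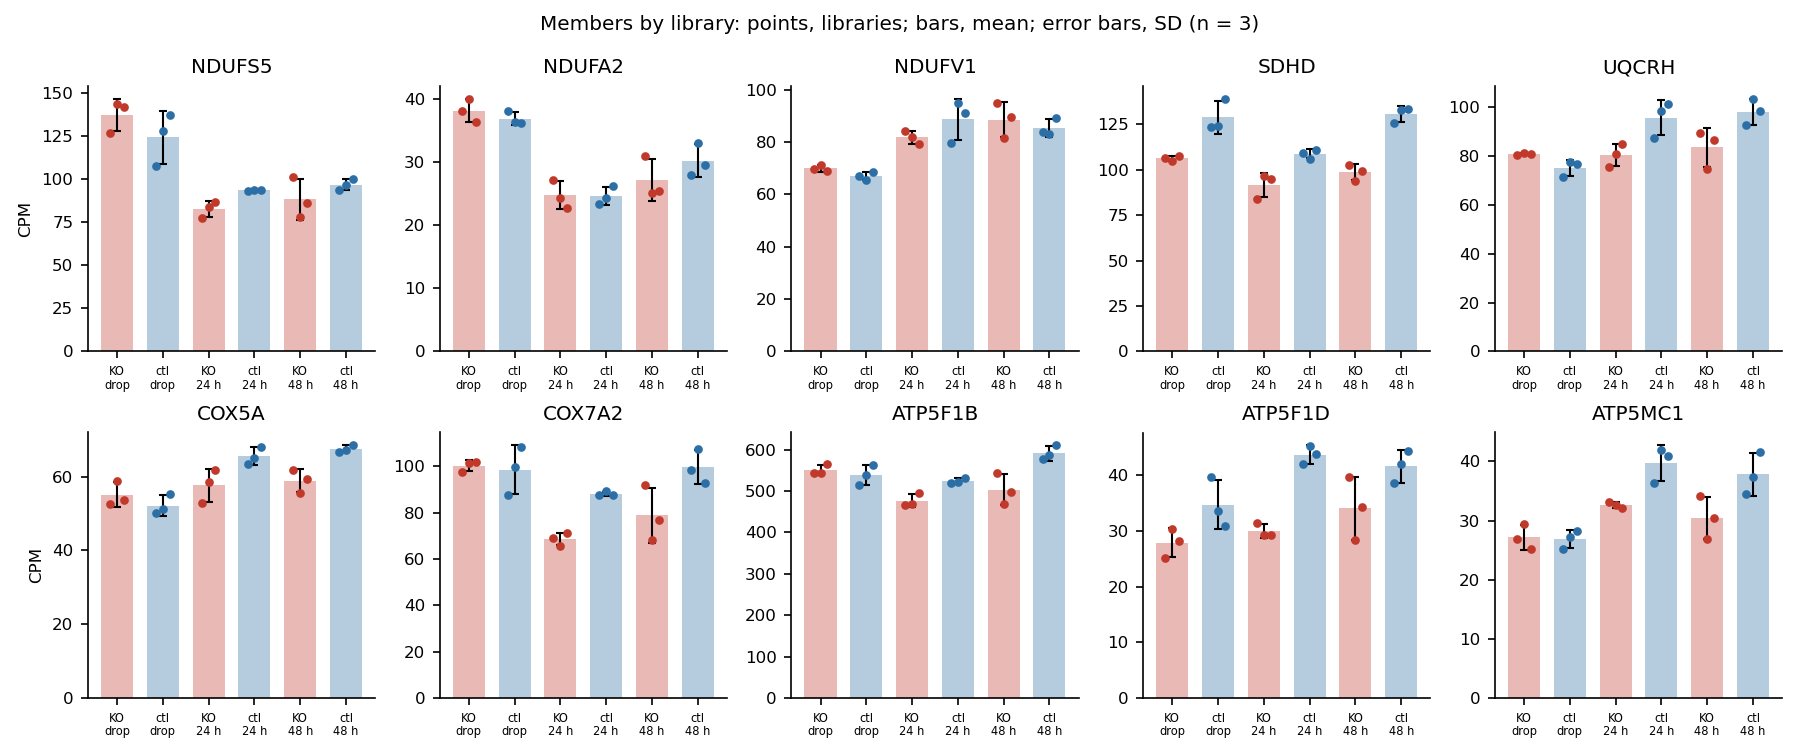
CPM of 10 members in each library by group, with KO left of control within each condition. Points are libraries, bars are means and error bars are SD (n = 3). UQCRH, COX5A and ATP5MC1 are higher in control spheroids in collagen than in control droplets, NDUFS5 and NDUFA2 are lower in collagen in both genotypes, and SDHD is lower in KO in all 3 conditions.

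The collagen response itself was compared between the genotypes by an interaction. The KO response at 24 h lay below the control response for 68 of 76 members, with a median difference of −0.14, and at 48 h for 69 of 76, also with a median of −0.14. Without KO replicate 1 at 48 h it was 73 of 76, with a median of −0.22. With all libraries the median over all genes was 0.02 at 24 h and 0.01 at 48 h. The share of all genes with a lower KO response is not given here, so these counts only describe the members. A single member passed the test at 24 h and 2 passed at 48 h, all in the downward direction, where 4.09% and 2.78% of all genes passed downward, so the share of members called was not above that of all genes at either time. Across the 76 members the responses of the genotypes had a Pearson r of 0.81 at 24 h and 0.83 at 48 h, as a description over genes that are not independent of each other. The member that passed at both times was UQCRH, the hinge protein of complex III, which helps cytochrome c dock (chr1:46303631-46316776, plus strand). It had 75.7, 80.9 and 85.0 CPM in KO at 24 h, against 80.4, 81.4 and 80.9 CPM in KO droplets, and 87.5, 98.7 and 101 CPM in control at 24 h, against 71.3, 77.6 and 76.7 CPM in control droplets. KO libraries in collagen and droplets overlapped, while in control the groups were apart. The difference of the responses was −0.36 at 24 h (SE 0.0956, adjusted p = 0.0272) and −0.34 at 48 h (SE 0.0958, adjusted p = 0.0383). At 48 h UQCRH had 89.6, 74.6 and 86.7 CPM in KO and 92.8, 104 and 98.4 CPM in control. ATP5F1B (chr12:56638175-56646068, minus strand) passed at 48 h. It had 543, 468 and 497 CPM in KO at 48 h, against 544, 543 and 565 CPM in KO droplets, and 576, 587 and 611 CPM in control at 48 h, against 515, 538 and 563 CPM in control droplets (−0.27, SE 0.0747, adjusted p = 0.036). The medians of the genotypes moved in opposite directions for ATP5F1B.

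These calls lay near the threshold. UQCRH was called at 24 h in 15 of 20 alternatives and at 48 h in 11 of 20, and ATP5F1B at 48 h in 11 of 20. The next members at 24 h were COX5B (−0.36, adjusted p = 0.0506), ATP5ME (−0.47, adjusted p = 0.0532) and NDUFB6 (−0.38, adjusted p = 0.0539). At 24 h no member passed without control replicate 1 or KO replicate 3 in droplets or without control replicate 2 or 3 at 24 h. Without control replicate 3 in droplets 8 passed, without control replicate 1 at 24 h 6 passed and without KO replicate 3 at 24 h 3 passed. At 48 h 19 members passed without KO replicate 1 at 48 h and 7 without control replicate 3 in droplets. None passed there with library size as the only scaling, without control replicate 1 or 2 or KO replicate 1 or 3 in droplets, without control replicate 2 or 3 at 48 h or without KO replicate 2 at 48 h. UQCRHL, a gene nearly identical in sequence to UQCRH that can share its reads, was lower in KO at 24 h (−0.45, adjusted p = 0.00294) and at 48 h (−0.47, adjusted p = 0.00226) and had interaction values of −0.46 and −0.48 that missed the threshold (adjusted p = 0.0625 and 0.057).

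The 3 genes of the c-ring encode the same mature protein and differ in their import sequences. Per kilobase, ATP5MC3 had the highest level of the 3 with 152 CPM per kb, ATP5MC2 had 87.6 and ATP5MC1 had 53.6. While ATP5MC1 rose at 24 h in both genotypes, ATP5MC2 fell, with 67.4 ± 1.67 CPM in KO at 24 h, against 85.6 ± 3.46 CPM in KO droplets (log2 fold change −0.35, adjusted p = 0.000167). In control ATP5MC2 had 70.5 ± 2.84 CPM at 24 h, against 79.8 ± 3.57 CPM in droplets (−0.18, adjusted p = 0.026). ATP5MC3 had 120 ± 4.40 CPM in KO at 24 h and 124 ± 1.36 CPM in KO droplets, and 132 ± 3.98 CPM in control at 24 h and 124 ± 6.08 CPM in control droplets. Of 13 further subunits and tissue isoforms 7 passed the filter. Among them CYCS, cytochrome c, which carries electrons from complex III to complex IV, had 195 ± 3.12 CPM in KO at 24 h, against 168 ± 0.789 CPM in KO droplets, and 250 ± 21.0 CPM in control at 24 h, against 170 ± 11.8 CPM in control droplets. CYCS rose by 0.22 in KO and by 0.55 in control, and the difference of −0.33 passed the test (SE 0.0883, adjusted p = 0.0262).

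Across the 18 libraries most members varied together. COX7A2 had a Pearson r of 0.94 with the mean of all other members, ATP5PF 0.91 and NDUFB8 0.90, as a description over libraries that share their scaling. The members with the lowest r were NDUFV1 (−0.24), NDUFS8 (−0.18), NDUFV3 (−0.02) and ATP5MC1 (0.01), which are the 4 that rose in KO at 24 h. Members also had short transcripts, with a median of 917 nt, beside 3009 nt for 13504 coding genes tested. In the 24 h interaction the log2 difference had a Pearson r of 0.48 with transcript length over the members and of 0.06 over all coding genes. The 2330 coding genes with transcripts of at most 1642.5 nt had a median of −0.08 in that interaction and of −0.06 in KO against control at 24 h, beside −0.14 and −0.11 for the members. The part of transcript length in the results was not tested.

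The assembly factors, which build the complexes and are not part of them, were called in both directions. Against droplets at 24 h, 25.5% of all genes were higher and 25.7% lower in KO, and 27.8% higher and 28.7% lower in control. In KO at 24 h 5 of 16 complex I factors rose and 2 fell, and in control 7 rose and 1 fell. Of 23 complex IV factors 4 rose and 9 fell in KO, and 5 rose and 8 fell in control. BCS1L, the chaperone that inserts the Rieske protein into complex III, had 22.9 ± 1.54 CPM in KO at 24 h, against 12.8 ± 1.07 CPM in KO droplets (log2 fold change 0.84), and 23.8 ± 1.47 CPM in control at 24 h, against 13.1 ± 2.07 CPM in control droplets (0.88). COA1, a factor of complex I and complex IV assembly, was higher in KO in all 3 conditions, with 83.1 ± 2.22 CPM in KO and 59.5 ± 2.56 CPM in control droplets (0.48, adjusted p = 7.19e-07). Its differences at 24 h and 48 h were 0.39 and 0.30. UQCC3, a complex III factor, was lower in KO at 24 h (−0.60, adjusted p = 0.000215) and at 48 h (−0.52, adjusted p = 0.000682).

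Other mitochondrial lists are read beside the same shares of all genes against droplets, and beside the 15.7% and 15.1% of all genes that were lower in KO than in control at 24 h and at 48 h. Of 77 mitochondrial ribosomal proteins 25 were called between KO and control at 24 h and 21 at 48 h, all lower in KO, with MRPL14 lowest at both times (−0.53 and −0.40). In KO at 24 h against droplets 24 of them fell and 8 rose, and in control 15 fell and 27 rose. Of 22 outer membrane, import and carrier proteins 10 were called between KO and control at 24 h, all lower in KO, and in control 14 rose and 3 fell against droplets, with HSPD1, the matrix chaperonin, highest (0.84). Of 13 enzymes of the tricarboxylic acid cycle 6 were called between KO and control at 24 h, all lower in KO. FH, fumarase, rose at 24 h by 0.45 in KO and by 0.65 in control.

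Among 15 regulators of mitochondrial biogenesis, 1 passed upward and 1 downward in the 24 h interaction. Over all genes 4.09% passed downward, and the share that passed upward is not given here. PPARGC1A, the coactivator PGC-1alpha, was the one that passed upward. It had 9.85 ± 1.11 CPM in KO at 24 h, against 10.4 ± 1.02 CPM in KO droplets, and 5.95 ± 1.26 CPM in control at 24 h, against 10.0 ± 1.39 CPM in control droplets. The difference of the responses was 0.68 at 24 h (SE 0.2, adjusted p = 0.0401) and 0.74 at 48 h (SE 0.201, adjusted p = 0.0316). TFAM, the mitochondrial transcription factor A, passed downward at 24 h (−0.32, SE 0.0966, adjusted p = 0.0484) and had −0.30 at 48 h, which missed the threshold (adjusted p = 0.0644). PPARGC1B, the paralog of PPARGC1A, rose in both genotypes at 24 h. In KO it rose by 2.20, with 4.79 ± 1.08 CPM against 1.04 ± 0.162 CPM in droplets. In control it rose by 1.98, with 3.17 ± 0.305 CPM against 0.809 ± 0.212 CPM in droplets.

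The 13 protein-coding genes of the mitochondrial genome, which encode core subunits of complexes I, III, IV and V, did not follow the nuclear-encoded members. In droplets all 13 were lower in KO, among them MT-ND2 at −1.09 on the log2 scale (adjusted p = 0.00126). Over all genes 9.7% were lower, and the median log2 fold change of the 13 was −0.85. Their summed level was 13746, 7501 and 11962 CPM in KO droplets, against 21278, 21175 and 17112 CPM in control droplets. At 24 h it was 23110, 21248 and 23768 CPM in KO, against 19488, 22659 and 22387 CPM in control, and the genotypes overlapped. In KO all 13 rose at 24 h against droplets (median 1.03) while 50 nuclear-encoded members fell, and in control 1 of the 13 rose (median 0.14). Over all genes 25.5% rose in KO and 27.8% in control. The ratio of the summed nuclear to the summed mitochondrial level was 0.471, 0.873 and 0.539 in KO droplets, against 0.290, 0.305 and 0.384 in control droplets. The KO droplets lay above every other library in this ratio, which was 0.237 to 0.260 in KO and 0.269 to 0.305 in control at 24 h. With the mitochondrially encoded genes left out before scaling, 53 members fell in KO at 24 h. The share of all genes at this setting is not given here, so this count cannot be set against the other genes.

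**Figure D5:**
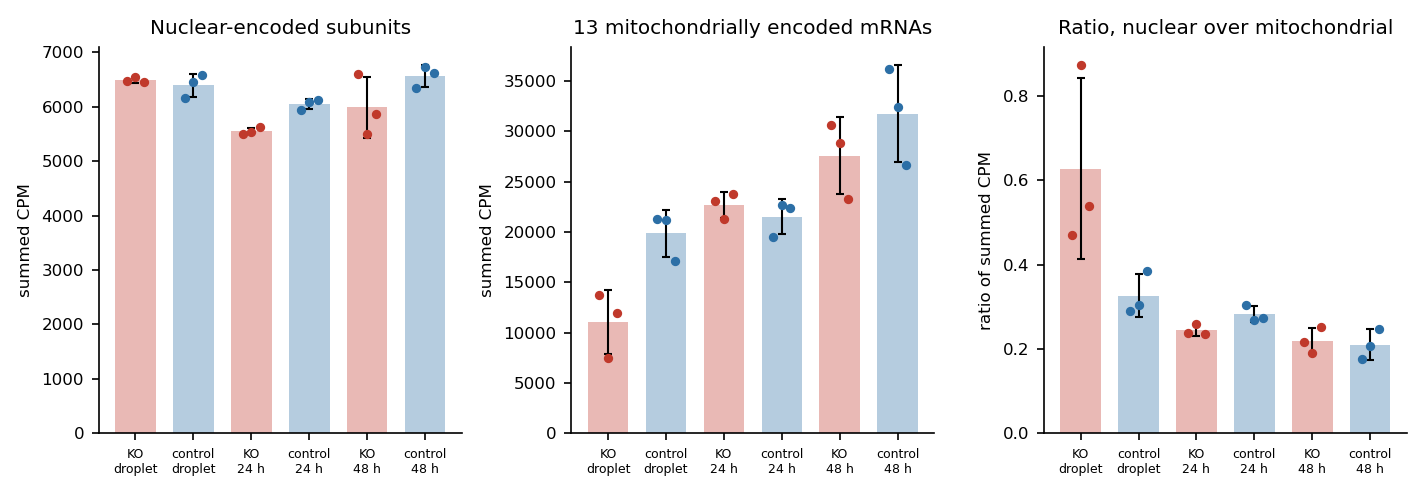
Summed CPM of the 76 nuclear-encoded subunits (left), summed CPM of the 13 mitochondrially encoded genes (middle) and their ratio (right), by group, with KO left of control within each condition. Points are libraries, bars are means and error bars are SD (n = 3). The ratio is 0.471 to 0.873 in KO droplets and 0.290 to 0.384 in control droplets.

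Several limits bear on single members. Exons of 33 members overlap an exon of another gene on the opposite strand and those of 24 members overlap on the same strand, while UQCRH, ATP5F1B, ATP5F1D, ATP5MC1, COX5A, COX7A2 and NDUFS5 have no such overlap in GENCODE 29. Pseudogene rows exist for 48 members. Beside SDHA, they held 4.80% as many reads as NDUFV2 and 1.83% as many as UQCRFS1, and at most 0.197% for each of the other members.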

How the data were processed

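RNA was sequenced as 151 bp read pairs from polyA libraries, per the labels' protocols. The submitters' processing notes list cutadapt 2.3, FastQC 0.11.8, STAR 2.7.8a, RSEM 1.3.3, MultiQC 1.7 and DESeq2 1.42.0, with the build GRCh38. The annotation release and the strandedness of counting are not stated there. Per gene, the deposited values are expected counts, already whole numbers as deposited.

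Counts were fitted in R 4.3.3 with edgeR 4.0.16 (limma 3.58.1), after filterByExpr with a minimum count of 10, which kept 17030 genes, and TMM scaling, with 1 coefficient per group over 18 libraries. P-values come from the quasi-likelihood test with Benjamini-Hochberg adjustment over all genes tested, separately for 9 pairwise comparisons and 3 interactions. The SE is the absolute log2 fold change over the square root of F. Alternatives were other scalings and filters, a replicate block, fits of the compared groups alone, DESeq2 1.42.0 and leaving out each library. The procedure was tested on simulated data. Always named were 15 subunits of defined function, then the 4 largest rises and falls that passed with at least 5 CPM, the 4 smallest adjusted p of each interaction and the top genes of each list. Not all of these are printed, results of 1 member are not reported here, and other members were named after their values were seen. Members and lists were chosen with earlier results of these data known.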

Additional observations from a re-analysis of the deposited data

Results flagged for a closer look

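For 2 members the test of the difference itself passed between the collagen responses of the genotypes. The 24 h response of UQCRH was lower in KO than in control by a log2 difference of −0.36 (edgeR interaction, adjusted p = 0.0272), and its 48 h response by −0.34 (adjusted p = 0.0383). The 48 h response of ATP5F1B differed by −0.27 (adjusted p = 0.036). These were 1 of 76 members at 24 h and 2 of 76 at 48 h, where 4.09% and 2.78% of all genes passed downward, so the share of members was not above that of all genes. UQCRH was called at 24 h in 15 of 20 alternatives and at 48 h in 11 of 20, and ATP5F1B at 48 h in 11 of 20. Leaving out a library gave 0 to 8 members in the 24 h interaction and 0 to 19 in the 48 h interaction, and library size alone gave 0 at 48 h.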

How the results depend on the processing

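With DESeq2 size factors in the edgeR fit the number of members called was 1 for KO between 24 h and 48 h, 5 for the 24 h interaction and 4 for the 48 h interaction. With library size alone it was 8 in droplets (6 of them higher) and 28 for control at 48 h (17 of them lower), so that the direction of most calls turned in both, 9 for KO against control at 48 h, 0 for KO between 24 h and 48 h and 0 for the 48 h interaction. With library size alone the mean log2 difference of KO and control at 24 h was −0.0655 for complex I, −0.0816 for complex II, −0.0658 for complex III, −0.0423 for complex IV and −0.131 for complex V, beside −0.119, −0.135, −0.119, −0.0954 and −0.184 with TMM. Without mitochondrially encoded genes the 24 h interaction called 4. With no filter 10 were called in droplets, 7 for KO between 24 h and 48 h and 12 and 10 in the interactions, and with the filter of 1 CPM in 3 libraries 9 in droplets (5 of them higher) and 5 in each interaction. With the compared groups alone 13 were called in droplets, 9 for KO against control at 48 h, 0 for KO between 24 h and 48 h and 12 and 1 in the interactions. DESeq2 called 8 in droplets, 5 for KO between 24 h and 48 h and 8 and 7 in the interactions. The cause was not tested. The shares of all genes called at these alternatives, and at those named above, are not given here, so the counts only describe the members.

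Leaving out a library gave 2 to 6 calls in droplets, 12 to 21 for KO against control at 24 h and 8 to 42 at 48 h, 25 to 30 for control at 24 h, 20 to 26 for control at 48 h, 46 to 52 for KO at 24 h, 23 to 47 for KO at 48 h, 7 to 10 for control and 0 to 12 for KO between 24 h and 48 h, 0 to 8 and 0 to 19 in the interactions at 24 h and 48 h, and 0 in that between the times. Every called member kept its sign under each alternative. For the fits without a library the shares of all genes called are not given here either.

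Whether replicate numbers pair the samples was not settled. Of 45 same-numbered pairs 8 had a correlation over 0.1 (range −0.127 to 0.283), and their median was 0.029. Pairs with different numbers had a median of −0.017, and 9 of 18 libraries correlated best with their own number. With the replicate block 5 members passed in each collagen interaction, 5 in droplets, 21 for KO against control at 24 h and 20 at 48 h. The shares of all genes with this block are not given here.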
